A study of Homo sapiens with 6 samples.

Results

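The NRF2 pathway and glutathione genes are a set of 40 genes named by symbol: the transcription factor NRF2 with its partners and its repressor KEAP1, and antioxidant, pentose phosphate and glutathione enzymes. All 40 symbols were matched to an Ensembl ID among the 60483 genes of the count tables, and their levels were compared between AHR siRNA and control siRNA. RNA-seq was performed on DLD-1, a human colorectal adenocarcinoma line, at passages given as a range, in RPMI-1640 medium with fetal bovine serum. The 3 AHR siRNA libraries come from cells transfected with siRNA against AHR, the gene of the aryl hydrocarbon receptor, and the 3 control siRNA libraries from cells transfected with a control siRNA. Whether the replicates are separate cultures is not stated, so the p-values reflect variation among libraries that may be technical. The labels name no clone, no siRNA sequence and no time after transfection.

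NRF2, encoded by NFE2L2, is held in the cytoplasm by KEAP1, which passes it to a ubiquitin ligase for degradation. Electrophiles and oxidants modify KEAP1, NRF2 then accumulates, pairs with a small MAF protein and binds antioxidant response elements, while BACH1 competes for the same elements. Its targets make and recycle glutathione, supply NADPH and conjugate or reduce reactive compounds. AHR and NRF2 induce overlapping sets of detoxification enzymes, and NFE2L2 itself is a known target of AHR.

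The libraries held 11567736 to 12937058 counts in AHR siRNA and 13585529 to 15037145 counts in control siRNA, so that every AHR siRNA library was shallower than every control library. AHR stood at 95.8, 87.4 and 95.0 CPM (counts scaled to the TMM-adjusted library total) in AHR siRNA libraries, against 117, 144 and 132 CPM in control siRNA libraries, and retained 70.8% of the control level (log2 fold change -0.50, SE 0.08, edgeR adjusted p = 1.98e-05). Control siRNA replicate 1 stood apart from the other control libraries: it differed from them by 7.55 to 8.68 times counting noise (chi-square per degree of freedom), against 1.54 between control siRNA replicates 2 and 3. The AHR siRNA libraries also differed from each other beyond counting noise, by 3.31 to 5.46 times. Each of 8 colorectal epithelial markers had counts in at least 1 library. CDX1 failed the filter on low counts, with 3, 10 and 9 counts in AHR siRNA and 8, 5 and 0 in control siRNA. The summed level of the 8 markers was 7420 to 7657 CPM of all counts in AHR siRNA and 10205 to 11114 CPM in control siRNA libraries. KRT8 and KRT18 made up most of that sum, with 3902 and 1756 CPM on average in AHR siRNA, against 6359 and 2829 CPM in control siRNA. The list did not move one way: VIL1, the villin gene, was higher at 33.5 CPM in AHR siRNA, against 7.47 CPM in control siRNA (log2 fold change 2.17, edgeR adjusted p = 1.85e-11), and KRT20 was not called, at 96.4% of control. The part of these markers in the results was not tested. Markers of fibroblasts, leukocytes and endothelium summed to at most 2.64 CPM per list in AHR siRNA and 3.79 CPM in control siRNA, with DCN, LUM and KDR at 0 in every library.

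Most of the NRF2 pathway and glutathione genes that changed were lower after AHR siRNA. Of the 40 members, 38 passed the filter on low counts, and 21 of these were called lower, 5 higher and 12 not called (edgeR quasi-likelihood test, Benjamini-Hochberg adjusted p under 0.05 over all tested genes). Among all 14900 genes tested, 60.1% were called in either direction, 30.1% lower and 30.0% higher, against 68.4%, 55.3% and 13.2% of the tested members. The median log2 fold change of the tested members was -0.27, against 0.0065 for all tested genes. The changes were near the background in size: 11 of 38 members (28.9%) were called with a fold of at least 1.5, against 30.4% of all tested genes, and the median absolute log2 fold change was 0.36 for members and 0.39 for all. The groups did not overlap for 28 of 38 members (73.7%), against 63.7% of all tested genes. Library totals in place of TMM scaling shifted the median gene by 0.15 on the log2 scale. With them, 9 members were higher and 16 lower, so that 36.0% of the member calls were rises, against 19.2% with TMM. Among all tested genes, 64.7% of the calls were rises with library totals, against 49.97% with TMM. The share of rises was therefore smaller among members than among all tested genes with either scaling. In bulk samples, fewer cells of a type and less RNA per cell cannot be told apart.

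**Figure D1:**
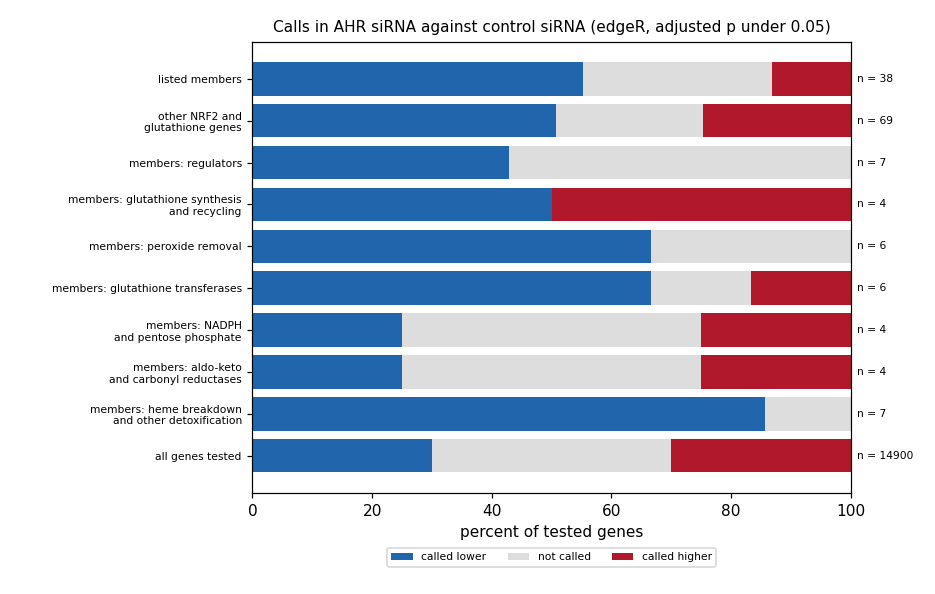
Share of tested genes called lower (blue), not called (grey) or called higher (red) in AHR siRNA against control siRNA, in percent, for the listed members, the other genes of the pathway, each role among the members, and all genes tested, with the number tested at the right. With TMM scaling 55.3% of the 38 tested members were lower, against 30.1% of all genes, and the glutathione synthesis and recycling genes were divided between falls and rises.

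An antioxidant response element is the site through which NRF2 acts, so promoter sequences were searched for it. RefSeq promoter windows on GRCh38.p14, from 250 bases before to 50 bases after a transcript start, were matched for 31 of the 40 members, with 44 windows in all; MAFK, GSS, GSR, PRDX1, PRDX6, MGST2, AKR1B10, CBR3 and HMOX1 were not analysed here for motifs. The letters TGACNNNGC were searched on both strands, and 13 of the 31 members (41.9%) held a match in at least 1 window, against 16.1% of all 27305 symbols in the table and 13.3% of its 35116 windows. By call, 8 of the 18 lower members held a match, 2 of the 4 higher members and 3 of the 8 members not called. The letters GCGTG, the core of the element bound by AHR and its partner ARNT, were found on either strand in 19 of the 31 members (61.3%), against 40.6% of all symbols: 13 of 18 lower, 2 of 4 higher and 4 of 8 not called. Matches of the 2 motifs were allowed to overlap, and a match is a description of the letters and not a bound site. The members were listed around NRF2 and its targets, and the symbols of the table include genes not tested here. The shares are therefore descriptions and no test of enrichment.

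The 250 bases before the start are printed for GCLM, which had the lowest fold change of the tested members but for HMOX1, and for ME1, which rose, with the match to TGACNNNGC in capitals. The GCLM stretch lies at chr1:93909431-93909680 on the minus strand and its match reads TGACTAAGC on the opposite strand. The ME1 stretch lies at chr6:83431052-83431301 on the minus strand and its match reads TGACTCAGC on the gene's own strand; a second ME1 match, TGACGGTGC on the opposite strand, lies past the start and outside the stretch.
GCLM: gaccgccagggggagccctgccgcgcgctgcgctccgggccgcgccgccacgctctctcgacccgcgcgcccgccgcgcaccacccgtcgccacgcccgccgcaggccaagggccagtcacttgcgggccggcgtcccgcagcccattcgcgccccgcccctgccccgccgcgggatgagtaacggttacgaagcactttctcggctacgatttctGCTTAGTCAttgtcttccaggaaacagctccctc
ME1: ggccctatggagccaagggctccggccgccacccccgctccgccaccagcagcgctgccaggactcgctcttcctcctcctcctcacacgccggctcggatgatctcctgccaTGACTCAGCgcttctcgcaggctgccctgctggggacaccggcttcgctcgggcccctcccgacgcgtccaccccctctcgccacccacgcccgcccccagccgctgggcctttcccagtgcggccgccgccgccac

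Windows of 29 bases around the match, 10 bases to each side, are printed for further members, read along the gene's own strand with the match in capitals. GSTP1 (chr11:67583736-67583764, plus strand), GPX2 (chr14:64942849-64942877, minus strand), EPHX1 (chr1:225825266-225825294, plus strand), CBR1 (chr21:36069855-36069883, plus strand) and MAFF (chr22:38201862-38201890, plus strand) were called lower, and KEAP1 (chr19:10502784-10502812, minus strand) was not called. GSTA4 (chr6:52995285-52995303, minus strand) was called higher, and its match ends at the base before the start, so its 19 bases stop there.
GSTP1: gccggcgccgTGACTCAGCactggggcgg
GPX2: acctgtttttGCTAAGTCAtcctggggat
EPHX1: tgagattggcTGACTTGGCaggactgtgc
CBR1: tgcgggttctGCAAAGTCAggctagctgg
MAFF: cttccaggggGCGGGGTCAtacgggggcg
KEAP1: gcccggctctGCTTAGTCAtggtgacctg
GSTA4: ccgggaccgcTGACCTGGC
The GSTP1 match and the ME1 match are the same 9 letters, and the gene of the first fell while that of the second rose. The rise of ME1 lost its call in 3 of 14 alternative settings. PIR, which was not called, held the same 9 letters on the opposite strand past its start. The printed GPX2, CBR1, MAFF and KEAP1 matches lie on the strand opposite to the gene, like that of GCLM, and the GSTA4 match lies on the gene's own strand. KEAP1 held another match, TGACACGGC, on its own strand 54 bases before the start.

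Among the regulators, 3 of 7 fell (42.9%) and none was called higher. Among all tested genes 30.1% were called lower, 30.0% higher and 60.1% in either direction. The share of regulators called in either direction was therefore no larger than the background, and with 7 genes these counts are descriptions. NFE2L2, which encodes NRF2, stood at 111, 103 and 104 CPM in AHR siRNA libraries, against 164, 148 and 156 CPM in control siRNA libraries, and fell to 68.1% of control (log2 fold change -0.55, SE 0.07, edgeR adjusted p = 9.13e-07). All 3 AHR siRNA libraries lay below all 3 control libraries. NFE2L1, the related factor that controls proteasome genes, had 118, 123 and 127 CPM in AHR siRNA, against 137, 150.2 and 154 CPM in control siRNA. It fell by a smaller amount (log2 fold change -0.26, SE 0.07, edgeR adjusted p = 0.00284), which was -0.11 and not called with library totals alone.

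MAFF, a small MAF protein gene that responds to stress, had the largest change of the regulators. It had 11.8, 11.9 and 11.5 CPM in AHR siRNA libraries, against 22.7, 23.1 and 22.8 CPM in control siRNA libraries, a fall to 51.3% (log2 fold change -0.96, SE 0.10, edgeR adjusted p = 8.29e-08). Its libraries were tight within each group and far apart between the groups. The other small MAF genes were not called: MAFG averaged 60.2 ± 1.1 CPM in AHR siRNA and 62.9 ± 1.6 CPM in control siRNA (SD, n = 3 each), and MAFK averaged 30.0 ± 3.1 CPM in AHR siRNA and 29.5 ± 0.9 CPM in control siRNA. Their log2 fold changes were -0.062 (SE 0.069) and 0.027 (SE 0.090), and the sign of MAFG turned with library totals and with upper-quartile factors.

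Neither repressor of NRF2 activity was called with TMM scaling and all 6 libraries in a fit without replicate numbers. KEAP1 had 90.3, 90.6 and 83.4 CPM in AHR siRNA libraries, against 106, 90.7 and 94.8 CPM in control siRNA libraries (log2 fold change -0.14, SE 0.07, edgeR adjusted p = 0.107), and was at 0.0087 with library totals alone. The groups of KEAP1 were separated by less than 0.1 CPM, between AHR siRNA replicate 2 and control siRNA replicate 2. BACH1, which competes with NRF2 and represses HMOX1, had 47.5, 40.7 and 47.5 CPM in AHR siRNA, against 35.9, 43.4 and 40.2 CPM in control siRNA (log2 fold change 0.18, SE 0.09, edgeR adjusted p = 0.0845). Its groups overlapped, and it was called higher when AHR siRNA replicate 2 was left out (log2 fold change 0.25, edgeR adjusted p = 0.0346), when control siRNA replicate 2 was left out (0.24, 0.0435), with upper-quartile factors (0.26, 0.0153) and with library totals (0.33, 0.00668).

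All 4 genes of glutathione synthesis and recycling were called, 2 lower and 2 higher. Among all tested genes 60.1% were called, 30.1% lower and 30.0% higher, and with 4 genes this count is a description. Glutathione is made by glutamate-cysteine ligase, a catalytic subunit (GCLC) with a modifier subunit (GCLM) that raises its activity, and then by glutathione synthetase (GSS). GCLM had 22.0, 18.5 and 17.6 CPM in AHR siRNA libraries, against 54.7, 57.6 and 55.8 CPM in control siRNA libraries, a fall to 34.5% (log2 fold change -1.54, SE 0.09, edgeR adjusted p = 4.13e-11). Of all tested genes, 1.29% had a lower log2 fold change. GCLC moved the other way: it had 139, 132 and 131 CPM in AHR siRNA, against 115, 117 and 119 CPM in control siRNA, a rise to 115% (log2 fold change 0.20, SE 0.06, edgeR adjusted p = 0.0121). GSS had 105, 104 and 99.5 CPM in AHR siRNA, against 94.9, 83.2 and 86.8 CPM in control siRNA (log2 fold change 0.22, SE 0.07, edgeR adjusted p = 0.0098). The rise of GSS was not called when control siRNA replicate 2 (0.17, edgeR adjusted p = 0.0800) or control siRNA replicate 3 (0.20, 0.0533) was left out. GSR, the reductase that returns oxidised glutathione to its reduced form, had 141, 138 and 141 CPM in AHR siRNA, against 317, 319 and 316 CPM in control siRNA. It fell to 44.2% of control (log2 fold change -1.18, SE 0.06, edgeR adjusted p = 1.48e-11), and its SD was 1.56 CPM in AHR siRNA and 1.28 CPM in control siRNA.

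**Figure D2:**
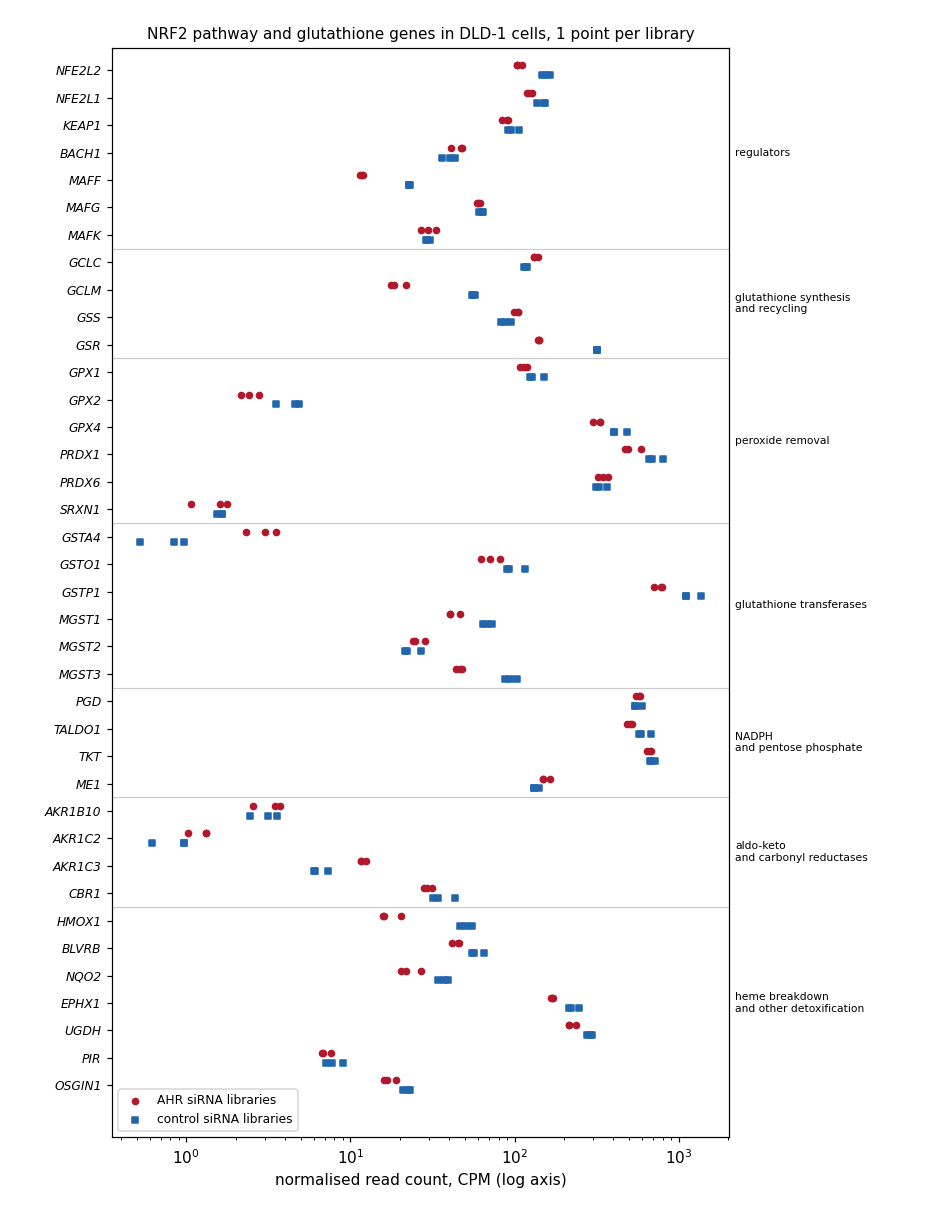
Normalised read count (CPM, log axis) of the 38 tested members in each library, with AHR siRNA libraries as red circles above control siRNA libraries as blue squares, grouped by role. GCLM, GSR, MAFF, MGST3 and HMOX1 show a clear gap with AHR siRNA below control, whereas GSTA4 and AKR1C3 lie above control in every AHR siRNA library.

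Of the 6 genes of peroxide removal, 4 fell (66.7%) and none was called higher. The share called was near the 60.1% of all tested genes called in either direction. Among all tested genes 30.1% were called lower and 30.0% higher, and with 6 genes these counts are descriptions. GPX4, the glutathione peroxidase that reduces lipid peroxides in membranes, had 333, 331 and 302 CPM in AHR siRNA libraries, against 483, 404 and 402 CPM in control siRNA libraries, a fall to 74.9% (log2 fold change -0.42, SE 0.08, edgeR adjusted p = 0.000112). PRDX1, a peroxiredoxin of the cytosol, had 587, 492 and 471 CPM in AHR siRNA, against 796, 661 and 685 CPM in control siRNA (log2 fold change -0.47, SE 0.09). The groups of both genes did not overlap. GPX2, a peroxidase of the gut epithelium, was low at 2.46 ± 0.32 CPM in AHR siRNA and 4.31 ± 0.70 CPM in control siRNA (SD, n = 3 each), and fell to 57.5% (edgeR adjusted p = 0.00299; log2 fold change -0.80, SE 0.21). GPX1, the cytosolic peroxidase, had 119, 115 and 108 CPM in AHR siRNA, against 151, 123 and 128 CPM in control siRNA (log2 fold change -0.23, SE 0.08, edgeR adjusted p = 0.0150). It was not called when control siRNA replicate 1 (-0.15, edgeR adjusted p = 0.0562) or AHR siRNA replicate 3 (-0.19, 0.0669) was left out, with upper-quartile factors (-0.15, 0.0993) or with library totals (-0.083, 0.338). PRDX6, a peroxiredoxin that uses glutathione, was not called, with 369, 344 and 320.3 CPM in AHR siRNA and 365, 313 and 325 CPM in control siRNA (log2 fold change 0.043, SE 0.074), though it was called higher with library totals (0.19, edgeR adjusted p = 0.0208). SRXN1, sulfiredoxin, which repairs overoxidised peroxiredoxins, was low at 1.49 ± 0.36 CPM in AHR siRNA and 1.62 ± 0.07 CPM in control siRNA (SD, n = 3 each), and its log2 fold change of -0.11 had an SE of 0.28. Most of its exon bases are shared with AL121758.1 on the same strand, so its level is uncertain.

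Of the 6 glutathione transferase genes, 4 fell and 1 rose, 83.3% called against 60.1% of all tested genes. GSTP1, the main soluble transferase of many carcinomas, had 787, 780.2 and 704 CPM in AHR siRNA libraries, against 1370.5, 1113 and 1103 CPM in control siRNA libraries. It fell to 63.3% (log2 fold change -0.66, SE 0.08, edgeR adjusted p = 1.63e-06), with control siRNA replicate 1 above the other libraries of its group, and the log2 fold change was -0.56 without that library. GSTO1, a transferase of the omega class, had 71.7 ± 9.4 CPM in AHR siRNA and 99.9 ± 14.5 CPM in control siRNA (SD, n = 3 each), a fall to 71.7%. The microsomal transferases, which lie in the membrane, did not move as a unit. MGST3 had 46.6, 48.0 and 43.9 CPM in AHR siRNA, against 104, 87.9 and 93.2 CPM in control siRNA, a fall to 48.7% (log2 fold change -1.04, SE 0.08, edgeR adjusted p = 1.24e-09). MGST1 fell to 62.4%, with 42.6 ± 3.5 CPM in AHR siRNA and 68.3 ± 4.3 CPM in control siRNA (SD, n = 3 each). MGST2 was not called, with 28.4, 24.6 and 23.9 CPM in AHR siRNA and overlapping values of 26.9, 22.2 and 21.5 CPM in control siRNA (log2 fold change 0.12, SE 0.10), and was called higher with library totals (0.27, edgeR adjusted p = 0.0254). GSTA4, which conjugates the lipid peroxidation product 4-hydroxynonenal, rose from near the floor and rests on few reads: it had 28, 48 and 41 counts in AHR siRNA libraries, against 7, 14 and 11 counts in control siRNA libraries. Its log2 fold change was 1.91 (SE 0.30, edgeR adjusted p = 2.28e-05) and ran from 1.69 to 2.09 with each library left out in turn.

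The NADPH-supplying genes changed little. TALDO1, transaldolase of the pentose phosphate pathway, had 518, 507 and 486 CPM in AHR siRNA libraries, against 677, 572 and 585 CPM in control siRNA libraries, a fall to 82.4% (log2 fold change -0.28, SE 0.07, edgeR adjusted p = 0.0028), which was -0.13 and not called with library totals. PGD, which yields NADPH from 6-phosphogluconate, had 574, 578 and 552 CPM in AHR siRNA and 595, 541 and 542 CPM in control siRNA (log2 fold change 0.022, SE 0.067). TKT, transketolase, had 639.8, 678 and 668 CPM in AHR siRNA and 720.4, 681 and 669 CPM in control siRNA (log2 fold change -0.060, SE 0.066). The groups of PGD and of TKT overlapped and neither was called, but PGD was called higher with library totals (0.17, edgeR adjusted p = 0.0172). ME1, the cytosolic malic enzyme with the upstream match TGACTCAGC, had 164.5, 148 and 149.5 CPM in AHR siRNA, against 141, 132 and 131 CPM in control siRNA, a rise to 115% (log2 fold change 0.20, SE 0.07, edgeR adjusted p = 0.0171). That call was lost when AHR siRNA replicate 1 (0.15, edgeR adjusted p = 0.0853), control siRNA replicate 2 (0.17, 0.0781) or control siRNA replicate 3 (0.17, 0.0927) was left out.

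The 4 listed aldo-keto reductases, AKR1B10 and AKR1C1 to AKR1C3, reduce carbonyls and steroids and are widely used as readouts of NRF2 in human cells. The 3 that were tested stood at 12.4 CPM or lower in every library. AKR1C3 was called higher and none was called lower. Among all tested genes 30.0% were called higher and 30.1% lower, and with 3 genes this count is a description. AKR1C3, a ketosteroid reductase, had 12.4, 11.5 and 11.6 CPM in AHR siRNA libraries, against 7.28, 6.0 and 6.08 CPM in control siRNA libraries, a rise to 184% (log2 fold change 0.88, SE 0.13, edgeR adjusted p = 1.25e-05). AKR1C2 averaged 1.23 ± 0.17 CPM in AHR siRNA and 0.852 ± 0.205 CPM in control siRNA (SD, n = 3 each) and was not called, with a log2 fold change of 0.51 (SE 0.34). AKR1C1 did not pass the filter, with 11, 13 and 8 counts in AHR siRNA and 9, 8 and 7 counts in control siRNA. These genes are closely similar neighbours on chromosome 10, so reads can be shared among them and the separate values are uncertain. AKR1B10, a reductase of retinal and other aldehydes, had 3.48, 3.75 and 2.57 CPM in AHR siRNA and 3.15, 3.59 and 2.46 CPM in control siRNA, and was not called (log2 fold change 0.082, SE 0.22).

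The carbonyl reductase genes CBR1 and CBR3 lie close together on chromosome 21. CBR1 had 31.5, 29.2 and 27.9 CPM in AHR siRNA libraries, against 43.4, 34.4 and 31.9 CPM in control siRNA libraries (log2 fold change -0.31, SE 0.10, edgeR adjusted p = 0.0143). It was not called when control siRNA replicate 1 (-0.18, edgeR adjusted p = 0.0841) or AHR siRNA replicate 2 (-0.30, 0.0531) was left out, with upper-quartile factors (-0.23, 0.0621) or with library totals (-0.16, 0.177). CBR3 was left out by the filter, with 6, 8 and 2 counts in AHR siRNA, against 24, 10 and 19 counts in control siRNA, and with no filter its log2 fold change was -1.67 (SE 0.43, edgeR adjusted p = 0.000548). Its groups did not overlap, but 493 of its exon bases are shared with CBR3-AS1 on the opposite strand, and with no strand stated those reads cannot be told apart.

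Of the 7 genes of heme breakdown and other detoxification, 6 fell (85.7%) and none was called higher. Among all tested genes 30.1% were called lower, 30.0% higher and 60.1% in either direction, and with 7 genes these counts are descriptions. HMOX1, the inducible heme oxygenase, had 15.7, 20.4 and 16.0 CPM in AHR siRNA libraries, against 54.8, 46.45 and 50.8 CPM in control siRNA libraries, and fell to 34.4% of control (log2 fold change -1.54, SE 0.10, edgeR adjusted p = 2.59e-10). No AHR siRNA library came near the control libraries, and 1.27% of all tested genes had a lower log2 fold change. BLVRB, a biliverdin and flavin reductase, had 45.6, 45.0 and 41.6 CPM in AHR siRNA, against 65.4, 56.9 and 54.9 CPM in control siRNA (log2 fold change -0.42, SE 0.08). NQO2, a quinone reductase that uses dihydronicotinamide riboside, averaged 23.0 ± 3.3 CPM in AHR siRNA and 36.9 ± 2.5 CPM in control siRNA (SD, n = 3 each), a fall to 62.1%. EPHX1, the microsomal epoxide hydrolase, had 170.3, 169.7 and 166 CPM in AHR siRNA, against 248, 216 and 221 CPM in control siRNA, a fall to 73.8%. UGDH, which makes the UDP-glucuronate used for glucuronidation, fell to 77.5%, with 222 ± 13 CPM in AHR siRNA and 287 ± 11 CPM in control siRNA (SD, n = 3 each). These 4 genes were lower in every AHR siRNA library than in any control library, with edgeR adjusted p-values of 7.94e-06 (NQO2) to 0.000182 (BLVRB). OSGIN1, a growth inhibitor induced by oxidative stress, had 17.2 ± 1.5 CPM in AHR siRNA and 22.1 ± 1.2 CPM in control siRNA (SD, n = 3 each). It fell to 78.1% (log2 fold change -0.36, SE 0.10, edgeR adjusted p = 0.00448), and was at -0.21 and not called with library totals. PIR, the pirin gene, was not called, with 6.71, 7.65 and 6.83 CPM in AHR siRNA and 9.0, 7.11 and 7.69 CPM in control siRNA (log2 fold change -0.16, SE 0.15).

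**Figure D3:**
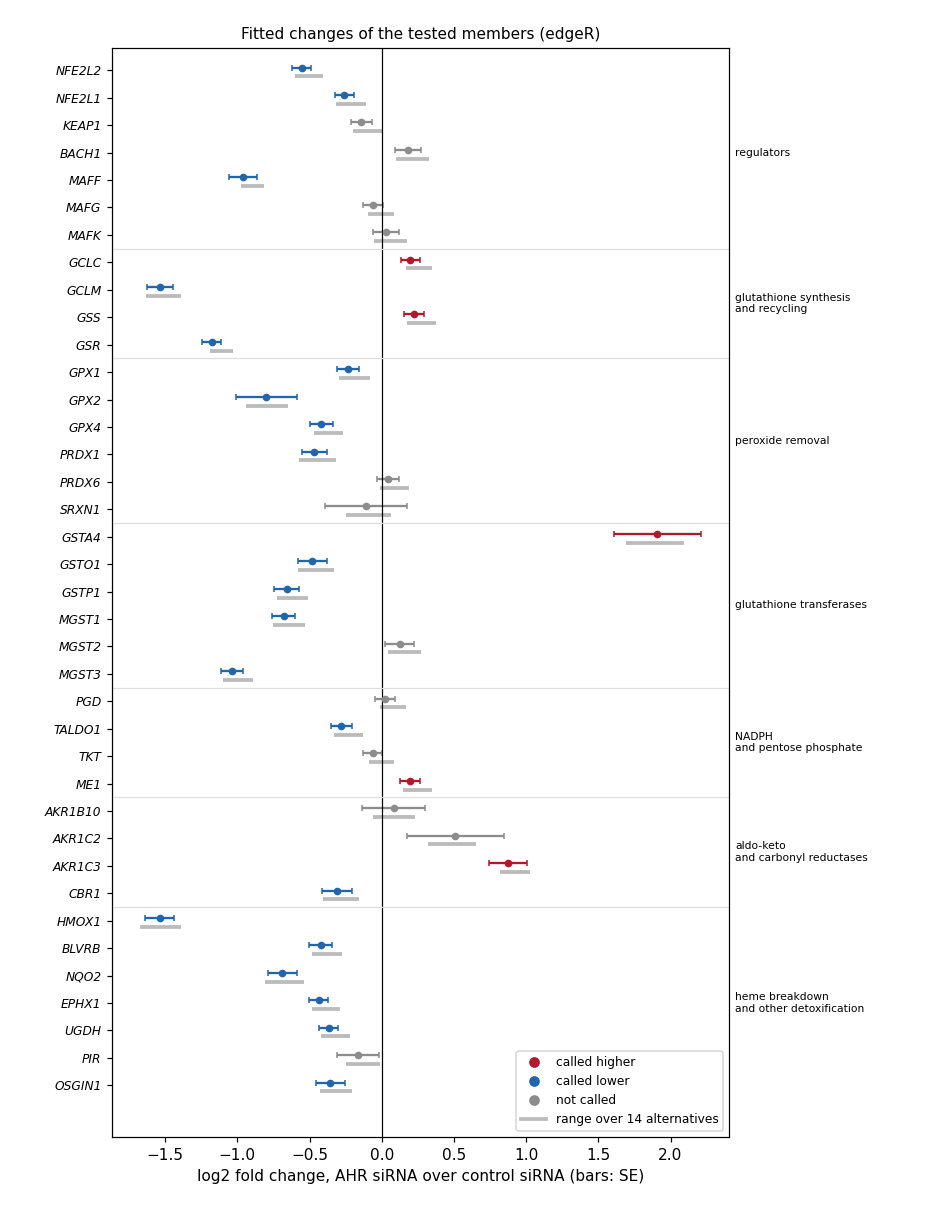
Log2 fold change of AHR siRNA over control siRNA for the 38 tested members, with SE bars, coloured by call, and below each point a grey bar for the range over 14 alternative settings. HMOX1 and GCLM lie near -1.54 and GSTA4 at 1.91, and the grey bars of KEAP1, MAFG, MAFK, PRDX6, SRXN1, PGD, TKT and AKR1B10 cross 0.

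Read against gene length, the members spanned a wide range. On the scale of CPM per kilobase of annotated exon, GSTP1 had the highest level of the tested members with 396 in AHR siRNA and 626 in control siRNA, followed by PRDX1 with 339 in AHR siRNA and 469 in control siRNA. AKR1C2 was lowest with 0.190 in AHR siRNA and 0.132 in control siRNA. These lengths join all annotated transcripts of a gene, so levels of genes with long minor transcripts are understated. The spread within a group was small beside most changes: the SD of a member was a median 6.0% of its mean in AHR siRNA (1.11% to 24.3%) and 8.09% in control siRNA (0.402% to 29.3%).

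Replicate 1 of each group was often the highest library of its group for these genes. AHR siRNA replicate 1 was highest among the AHR siRNA libraries for 22 of 38 members (57.9%), against 36.2% of all tested genes, and control siRNA replicate 1 was highest among the control libraries for 25 of 38 members (65.8%), against 40.8% of all tested genes. The part of replicate 1 in the results was not tested beyond leaving each library out: without control siRNA replicate 1, 24 members were called, 5 higher and 19 lower, and all 24 were among the 26 called with every library. That fit called 8993 of 15308 tested genes, 4470 higher and 4523 lower.

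Ratios of counts between 2 genes of the same library do not depend on the scaling of the libraries, and 6 pairs were compared, chosen after their values were seen. The ratio of GCLM to GCLC counts was 0.158, 0.141 and 0.134 in AHR siRNA libraries, against 0.477, 0.491 and 0.471 in control siRNA libraries. The transcript of the modifier subunit was thus 3.33-fold lower relative to that of the catalytic subunit. The ratio of the inducible HMOX1 to the constitutive HMOX2 was 0.151 ± 0.020 in AHR siRNA and 0.396 ± 0.017 in control siRNA (SD, n = 3 each). The ratio of MAFF to MAFG was 0.195 ± 0.003 in AHR siRNA and 0.364 ± 0.008 in control siRNA, and that of NFE2L2 to KEAP1 was 1.20 ± 0.06 in AHR siRNA and 1.61 ± 0.05 in control siRNA. GSTO1 to GSTO2, transferases of the same class, gave 1.08 ± 0.08 in AHR siRNA and 2.33 ± 0.23 in control siRNA. TXNRD1 to TXNRD2, the cytosolic and mitochondrial thioredoxin reductases, gave 21.9 ± 2.7 in AHR siRNA and 52.0 ± 2.6 in control siRNA. In these last pairs both genes moved, so the lower ratio is not the fall of the first gene alone. GSTO1 fell and GSTO2 rose (log2 fold change -0.48 and 0.62), and TXNRD1 fell and TXNRD2 rose (-0.69 and 0.57). The denominator GCLC also rose (0.20). In all 6 pairs the groups did not overlap, and each exact two-sided permutation test gave p = 0.1, the smallest p that 3 against 3 libraries allow. The pairs were chosen with their values known, so the separations and these p-values are descriptions and no test. Taken singly, 63.7% of all tested genes had groups that did not overlap, and other pairs were not compared.

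**Figure D4:**
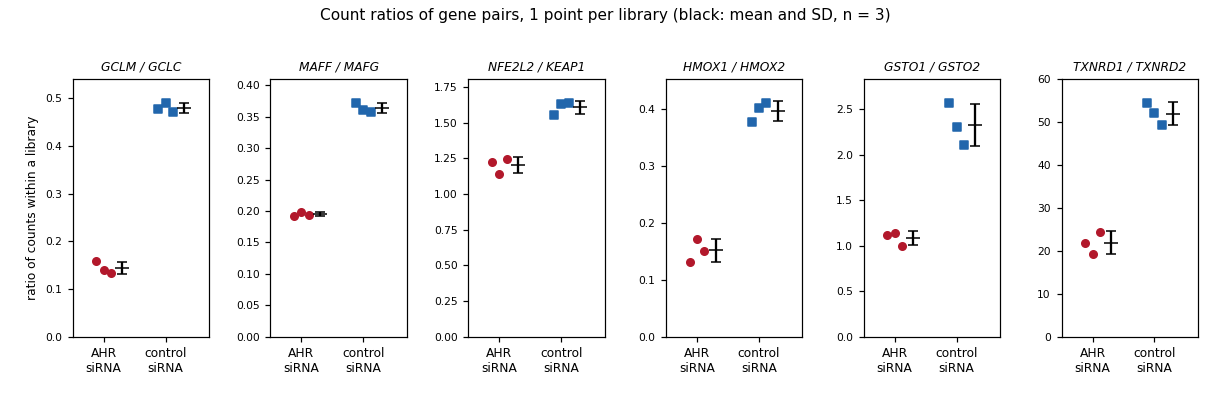
Ratio of the counts of 2 genes within each library for 6 pairs chosen after their values were seen. AHR siRNA libraries are red circles left of control siRNA libraries as blue squares, with the mean and SD in black and a linear axis from 0 in each panel. All 3 AHR siRNA libraries lie below all 3 control libraries in every panel, with mean ratios of GCLM to GCLC of 0.144 in AHR siRNA and 0.480 in control siRNA.

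More of the other genes of the NRF2 and glutathione network were called lower than higher. A second list of 75 genes held further KEAP1 ligase components, cystine transport, catalase, superoxide dismutases, thioredoxins, glutaredoxins, transferases, NADPH enzymes and efflux pumps. Of these, 69 were tested and 35 were lower (50.7%), 17 higher (24.6%) and 17 not called, against 30.1% lower and 30.0% higher among all tested genes. The median log2 fold change of the list was -0.19, against 0.0065 for all tested genes. With library totals 26 genes of the list were lower and 23 higher, against 3205 lower and 5885 higher among all tested genes. NQO1, the quinone reductase most used as a readout of NRF2, had 798, 727 and 702 CPM in AHR siRNA libraries, against 1016.5, 889 and 904 CPM in control siRNA libraries, a fall to 79.3% (log2 fold change -0.34, SE 0.07, edgeR adjusted p = 0.000715). The 3 largest falls with a mean of at least 5 CPM were in GGCT (log2 fold change -1.17), CHAC2 (-1.15) and TRIM16 (-1.14). GGCT and CHAC2 encode enzymes that break down gamma-glutamyl peptides and glutathione, and TRIM16 encodes a protein that stabilises NRF2. GGCT had 19.5 ± 1.3 CPM in AHR siRNA and 43.8 ± 4.8 CPM in control siRNA (SD, n = 3 each).

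The 3 largest rises of that list with a mean of at least 5 CPM were in H6PD (log2 fold change 0.86), IDH1 (0.86) and GSTZ1 (0.81). H6PD is the glucose-6-phosphate dehydrogenase of the endoplasmic reticulum and IDH1 the cytosolic isocitrate dehydrogenase, and both yield NADPH. IDH1 had 519.5, 492 and 467 CPM in AHR siRNA libraries, against 287, 268 and 259.9 CPM in control siRNA libraries, with no overlap. GSTZ1, maleylacetoacetate isomerase of tyrosine breakdown, had 25.6 ± 1.7 CPM in AHR siRNA and 14.6 ± 1.3 CPM in control siRNA (SD, n = 3 each). By role, the thioredoxin and glutaredoxin genes had 7 of 9 lower and 1 higher, and the further peroxide-removal genes 6 of 9 lower and 1 higher. The further glutathione synthesis and recycling genes had 4 of 9 lower and 3 higher, the further transferases 5 of 8 lower and 3 higher, and the further NADPH genes 3 of 8 lower and 2 higher. The further regulators had 4 of 9 lower and 1 higher, the heme, iron, efflux and other detoxification genes 6 of 12 lower and 2 higher, and the further aldo-keto and carbonyl reductases none of 5 lower and 4 higher. Among all tested genes 30.1% were lower and 30.0% higher, and with 5 to 12 genes a role these counts are descriptions.

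Shared sequence limits some of these values. Exons of 15 of the 40 members overlap exons of another gene in GENCODE 29, and for EPHX1, MAFG, MAFK, MGST2, NFE2L2 and CBR3 the other gene had at least 10% as many counts. NFE2L2 shares 54 bases with AGPS on the opposite strand and MAFK shares 809 bases with TMEM184A. SRXN1 shares 2292 of its 2698 exon bases with AL121758.1 on the same strand, a gene with 6.4% as many counts. Whether reads in such shared exons were counted is not stated, so the low level of SRXN1 is uncertain. Pseudogenes named after GPX1, PRDX1, GSTP1, PGD and AKR1B10 each drew under 0.4% of the counts of their parent, and the handling of reads with several matches is not given in the sources used.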

How the data were processed

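RNA-seq counts of 6 libraries were used, 3 from AHR siRNA and 3 from control siRNA cells. The authors deposited raw counts, 1 whole number per versioned Ensembl gene ID for 60483 genes. The submitters' processing notes list HTSeq, TopHat and TopHat2 2.0.11 as tools and GRCh37 and hg19 as builds, without saying which served for what. The ID versions matched GENCODE 29 (GRCh38) for 37168 genes, so the build behind the counts is uncertain and coordinates are given for RefSeq sequences on GRCh38.p14. Of the IDs, 56321 were found in the gene name table, and symbols were taken from it and from GENCODE 29. All 37 mitochondrial genes were at 0.

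Counts were tested with edgeR 4.0.16 in R 4.3.3 (filterByExpr, TMM, glmQLFit and glmQLFTest, group as the only term), with Benjamini-Hochberg adjustment over 14900 genes and a threshold of 0.05. CPM uses TMM-scaled totals. The SE is the log2 fold change divided by the square root of F. The script was tested on simulated data. The members, lists and pairs were chosen with earlier results of these data known. Genes named are AHR, all members, NQO1 and the 3 largest rises and falls of the second list at a mean of at least 5 CPM; others were named after their values were seen. GSTT1 was not analysed here. Alternatives used DESeq2 1.42.0 and limma 3.58.1. Intervals and SEs do not cover the handling of reads before counting.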

Additional observations from a re-analysis of the deposited data

How the results depend on the processing

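Of 26 called members, 19 kept their direction and call in all 14 alternatives (DESeq2 size factors, upper-quartile factors, library totals, no filter, at least 1 CPM in 3 samples, the DESeq2 Wald test, limma-voom, a replicate block and each library left out), 7 lost the call in at least 1 and none turned its direction. DESeq2 and limma-voom each called the same 26 members. Members called higher numbered 5, against 9 with library totals, 3 at an adjusted p under 0.01 and 3 to 6 with a library left out. With library totals 5885 of 9090 called genes were higher, against 4474 of 8953. Members that were not called changed sign with library totals: KEAP1 (log2 fold change 0.0087), MAFG (0.085), SRXN1 (0.038) and TKT (0.088), and with upper-quartile factors MAFG (0.017) and TKT (0.018). With a library left out, MAFK ran from -0.053 to 0.094, PRDX6 from -0.011 to 0.10, SRXN1 from -0.25 to 0.063, PGD from -0.010 to 0.060 and AKR1B10 from -0.059 to 0.23. AHR ran from -0.58 to -0.43. The causes were not tested. Few counts limit GSTA4, AKR1C1, AKR1C2, SRXN1 and CBR3. For SRXN1 most exon bases are also shared with another gene, and the reason for its few counts was not tested.

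Same-numbered libraries shared only a number: their deviations from the group means correlated at 0.193, -0.040 and 0.154, and no label pairs them. With a replicate block 28 members were called, KEAP1 lower (-0.14, edgeR adjusted p = 0.0473) and BACH1 higher (0.18, 0.0488) besides the 26, and 54 genes of the second list and 9598 of all genes were called.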

Other observations

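The further aldo-keto and carbonyl reductase genes of the second list were mostly higher: 4 of 5 tested were called higher and none lower (AKR1A1, AKR1B1, CBR4 and PTGR1), against 30.0% of all tested genes called higher, with a median log2 fold change of 0.47. The groups of PTGR1 overlapped, and the difference from the other genes was not tested. Named after their values were seen, AKR1A1, an aldehyde reductase, had 127 CPM in AHR siRNA and 89.7 CPM in control siRNA on average (log2 fold change 0.50), and CBR4, a mitochondrial reductase, had 34.7 CPM in AHR siRNA and 20.5 CPM in control siRNA (0.76). Together with AKR1C3, these were reductases with higher levels after AHR siRNA, while CBR1 fell.

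Transcripts of catalase and of both chains of the cystine transporter were lower, also named after their values were seen. CAT, which breaks down hydrogen peroxide in peroxisomes, averaged 49.5 CPM in AHR siRNA and 99.6 CPM in control siRNA (log2 fold change -1.01). SLC7A11, the cystine transporter that feeds glutathione synthesis, averaged 18.5 CPM in AHR siRNA and 33.9 CPM in control siRNA (-0.87), and its partner SLC3A2 averaged 263 CPM in AHR siRNA and 380.0 CPM in control siRNA (-0.53). GSTZ1, GSTO2 and GSTK1 were higher among the further transferases, with 5 others lower.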
